A study of Columba livia with 9 samples.

Results

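The 150 mRNAs described here are those whose levels differed most among the 3 bursa of Fabricius (BF) libraries of 26-day-old (26D) pigeon squabs. They were chosen by measured values. Each TPM value was divided by the median of its library, taken over the 10027 mRNAs above 0.5 TPM in all 9 libraries, and this level was put on a log2 scale after adding 0.01. Of 13072 mRNAs listed, 7022 had a mean of at least 5 TPM at 26D, and the 150 with the highest SD over the 3 libraries of 26D were taken from these. The libraries are named by stage and replicate, so that 26D_1 is replicate 1 of 26D. The series holds BF RNA of 9 White King squabs, 3 per age (1D, 13D or 26D, in days), all untreated and all labelled female. Each library came from a different squab and was made from RNA depleted of ribosomal RNA, with strand kept. All comparisons thus have 3 libraries per stage.

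The BF is the organ in which birds make their B cells, with lymphoid follicles that lie under an epithelium and are held by connective tissue and smooth muscle. Collagens and proteoglycans form the extracellular matrix of that connective tissue, and ribosomal proteins build the ribosome. In birds males carry a pair of Z chromosomes and females a Z and a W, and the higher Z dose of males is only partly compensated. In a bulk sample, fewer cells of a type and less RNA per cell cannot be told apart.

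The library medians ran from 5.95 TPM in 26D_1 to 19.9 TPM in 1D_1, and the most abundant lncRNA took between 13.9% and 39.0% of all TPM, the highest share in 26D_1. Of 22 B lineage markers listed, 18 were measured. Their summed level was 94.9 to 138 library medians at 1D, 194 to 234 at 13D and 253 to 340 at 26D, and none of the 18 was at 0 at 26D. These sums depend on the scaling. Of 15 with at least 5 TPM at 26D, 8 were highest in 26D_1 of the 26D libraries with library medians, against 3105 of the 7022 mRNAs. On the deposited TPM 0 were, against 302, and 13 were lowest there, against 6246. The libraries did not look alike for chromosome Z. The 452 Z-linked mRNAs above 0.5 TPM in all libraries and outside the 150 had a median level of 1.38 to 1.53 in 1D_1, 1D_2, 13D_1 and 26D_1, and of 0.813 to 0.942 in the other 5 libraries. Autosomal mRNAs had medians of 0.993 to 1.02. The 20 Z-linked lncRNAs measured had medians of 0.205 to 0.260 in the same 4 libraries and of 0.139 to 0.190 in the others. The 24 W-linked mRNAs above 0.5 TPM in all libraries, at medians of 0.964 to 1.39, did not split the libraries in this way. A W-linked mRNA missing from some libraries could not be among the 24, so they cannot show whether any library lacks such mRNAs. The 4 libraries thus stand apart from squabs with the same label, and results that rest on them are given with and without Z-linked mRNAs.

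The 150 mRNAs were grouped by the 26D squab that stood farthest from the middle one of the 3. With 3 values there is always such a library. The gap to it covered at least 2/3 of the range in 114 of 150, or 76%, against 65.5% of the 7022 mRNAs. The library that stood apart was 26D_3 on the high side for 65 mRNAs, 26D_1 on the high side for 51, 26D_3 on the low side for 14 and 26D_2 on the low side for 12. For 4 it was 26D_1 on the low side, and for 4 it was 26D_2 on the high side. These counts come from the values that chose the mRNAs and carry no test. Among all 7022 mRNAs with a mean of at least 5 TPM at 26D, 13.9% had 26D_3 on the high side and 28.2% had 26D_1 there.

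**Figure D1:**
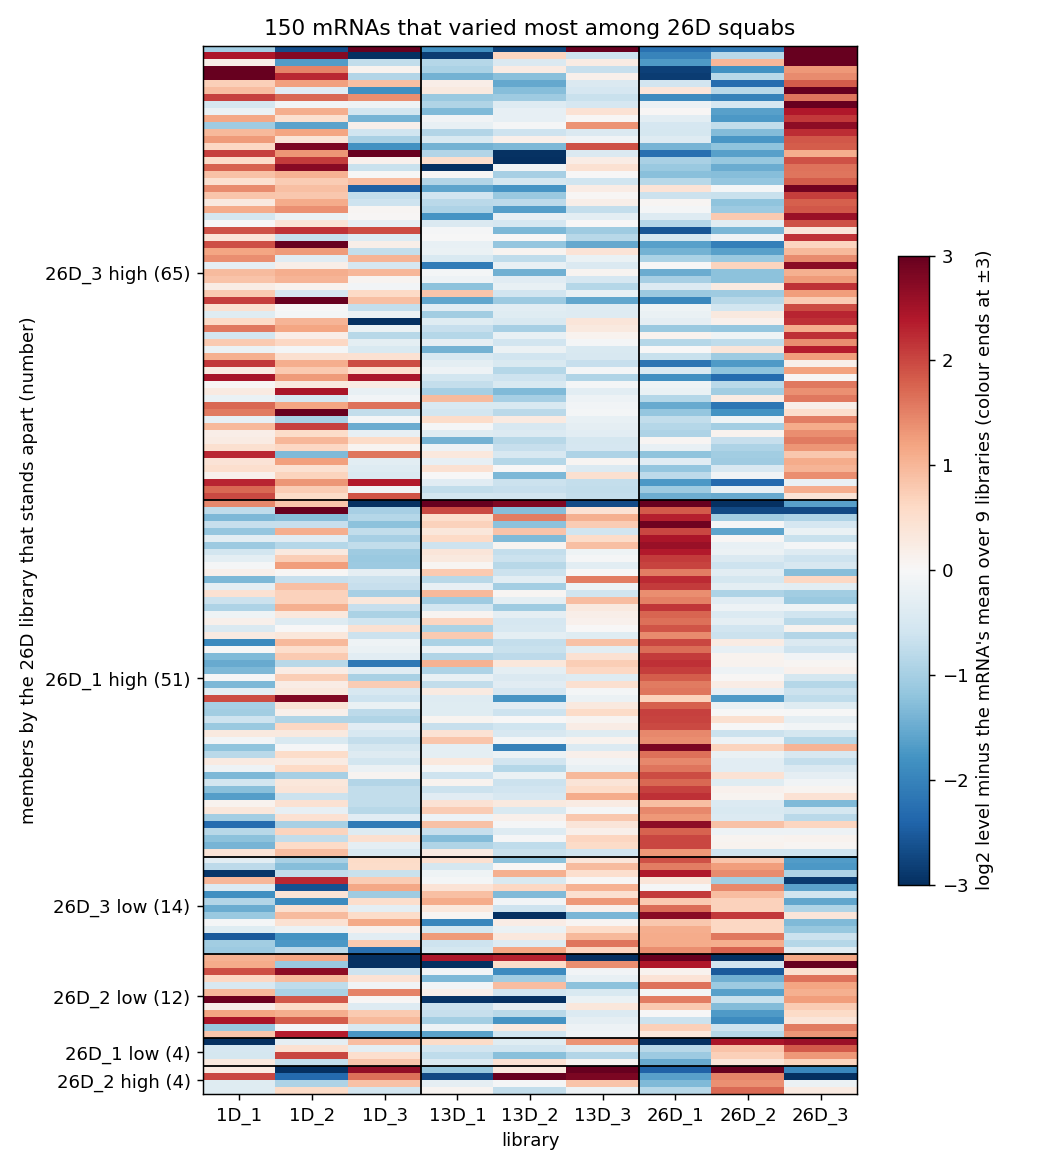
Log2 level of the 150 mRNAs in the 9 libraries, each row 1 mRNA minus its mean over the libraries (red above, blue below), in blocks by the 26D library that stood apart and by SD within a block. The 65 mRNAs of the top block are red in 26D_3 and often at 1D, while the 51 of the next block are red in 26D_1.

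The median SD at 26D was 1.31 on the log2 scale, against 0.293 over the 7022 mRNAs, as the choice requires. The last mRNAs inside the limit were SAA2, an acute phase serum amyloid protein, with an SD of 1.093 and COL6A2, a chain of collagen VI, with 1.092. The first outside were NMRK2, a kinase of NAD synthesis, with 1.091 and LOC102092470 with 1.089. Of the 150, 90 had a gene name, 47 only a LOC number and 13 no symbol. The values of 3 of them were 0 TPM in a library, and 139 were above 0.5 TPM in all libraries.

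High in 26D_3 were genes of the extracellular matrix, of contractile cells and of cytotoxic cells. VCAN, the large matrix proteoglycan versican, is encoded on Z. In replicates 1, 2 and 3 it was at 2.36, 1.87 and 1.47 library medians at 1D. At 1D the libraries with the raised Z level, 1D_1 and 1D_2, were thus above 1D_3. VCAN was at 0.253, 0.259 and 0.346 at 13D, and at 0.144, 0.130 and 1.72 at 26D. The level in 26D_3 lay within the range of 1D, and both other 26D libraries were below every library of 13D. COL3A1, the main chain of collagen III, was at 59.2, 30.7 and 63.4 at 1D, at 9.65, 7.77 and 7.48 at 13D, and at 3.68, 2.42 and 10.7 at 26D. COL1A2, a chain of collagen I, was at 15.8, 6.87 and 15.6 at 1D, at 1.95, 1.84 and 1.51 at 13D, and at 0.793, 0.568 and 2.90 at 26D. With library medians both collagens in 26D_3 were above all 13D libraries and below all 1D libraries. On the deposited TPM COL3A1 in 26D_3, at 131 TPM, was below 13D_1 and 13D_2, at 169.5 and 138.6 TPM. VCAN in 26D_3, at 21.25 TPM, was there just under the lowest value at 1D, 21.33 TPM. COL6A3 and COL6A2, chains of collagen VI, were at 0.948 and 1.89 in 26D_3 and at 0.179 to 0.253 and 0.494 to 0.513 in the other squabs of that age. OGN, the small proteoglycan osteoglycin, was at 1.24 against 0.384 and 0.238. LUM, the collagen-binding proteoglycan lumican, was at 2.59 in 26D_3 and 1.74 in 26D_1, with 26D_2 low at 0.530.

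These 7 were the ones among 25 measured genes of a matrix and fibroblast list. The other genes of the list with at least 5 TPM at 26D pointed the same way. All 19 such genes of the list were highest in 26D_3 of the 3 squabs of that age, while 24.4% of the 7022 mRNAs were. The 19 were so also on the deposited TPM, against 3112 of the 7022 mRNAs, and with median-of-ratios factors, against 2055. In 26D_3, 16 of the 19 were above every library of 13D with library medians, against 1882 of 7022. On the deposited TPM 12 were, against 749. The 19 include the 7, which these same values chose. The limit of 5 TPM also favours genes high in 1 library: VCAN and COL6A3 were under it in 26D_1 and 26D_2. These counts thus carry no test. The summed level of the list was 28.4 in 26D_1, 22.4 in 26D_2 and 61.4 in 26D_3, against 37.7 to 44.4 at 13D and 119 to 185 at 1D. None of the 25 genes was at 0 at 26D.

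TAGLN, the smooth muscle protein transgelin, was at 6.23, 3.75 and 20.1 at 1D, at 0.804, 0.183 and 1.10 at 13D, and at 0.303, 0.473 and 3.19 at 26D. MYH11, the smooth muscle myosin heavy chain, was at 10.5, 12.7 and 10.9 at 1D, at 2.75, 1.09 and 1.33 at 13D, and at 0.465, 1.08 and 3.58 at 26D. In both genes 26D_3 was above every library of 13D and below every library of 1D with library medians. On the deposited TPM MYH11 was at 44.2 TPM in 26D_3 and at 48.3 TPM in 13D_1. The smooth muscle list of 18 measured genes summed to 27.8 in 26D_3 and to 9.76 and 10.5 in the other 26D libraries. All 6 of its genes with at least 5 TPM at 26D were highest in 26D_3 of the 26D libraries under the 3 scalings. For the 7022 mRNAs this count was 1713 with library medians, 3112 on the deposited TPM and 2055 with median-of-ratios factors. All 6 were above every library of 13D in 26D_3 with library medians, against 1882 of 7022. On the deposited TPM 2 were, against 749. The 6 include TAGLN and MYH11, which these same values chose, so the counts carry no test. Its only gene at 0 in a 26D library was CHRM2, a muscarinic receptor, in 26D_1. VWF, the von Willebrand factor of endothelial cells, was at 0.494, 0.529 and 2.39 at 26D and at 0.606 to 0.858 at 13D, and the 13 endothelial genes measured summed to 9.31 in 26D_3 against 4.37 and 3.36.

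GZMA, the granzyme A of cytotoxic lymphocytes, was at 0.560, 0.229 and 0.0750 at 1D, at 0.359, 0.115 and 0.204 at 13D, and at 0.378, 0.160 and 2.75 at 26D. PRF1, the pore-forming perforin of the same cells, was at 0.0811, 0.0532 and 0.201 at 1D, at 0.153, 0.178 and 0.475 at 13D, and at 0.126, 0.104 and 1.23 at 26D. For both genes 26D_3 was the highest of all 9 libraries. The 15 measured T and NK lineage genes summed to 10.8 in 26D_3, 5.67 in 26D_1, 3.82 in 26D_2 and 2.31 to 4.81 at the other stages. TBX21, a transcription factor of effector T and NK cells, was at 0 TPM in 26D_2 and 2.89 TPM in 26D_3, and CD5, a T cell surface receptor, at 0 TPM in 26D_1 and 0.931 TPM in 26D_3. GZMA lies on chromosome Z and was thus highest in a library without the raised Z level.

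Further genes of the group belonged to myeloid, interferon, lipid and epithelial lists. CEBPB, a transcription factor of myeloid cells and of the acute phase, was at 0.875, 0.512 and 2.49 at 26D. The 12 myeloid genes measured summed to 43.9 in 26D_1, 31.3 in 26D_2 and 38.7 in 26D_3, while 6 of 8 with at least 5 TPM at 26D were highest in 26D_3. LYZ, lysozyme, was at 0.269, 0.205 and 1.85 at 26D, at 0.0560, 0.561 and 0.824 at 13D and at 2.05, 4.02 and 0.369 at 1D, so that 26D_3 lay within the range of 1D and above all of 13D. EPSTI1, an interferon-induced gene, was at 0.293, 0.283 and 1.39 at 26D. Of 11 interferon response genes with at least 5 TPM at 26D, 10 were highest in 26D_3, against 1713 of the 7022 mRNAs. On the deposited TPM 11 of 11 were, against 3112 of 7022. The 21 interferon response genes measured summed to 43.8 in 26D_3 against 24.4 and 19.5. The 8 myeloid and 11 interferon genes include CEBPB and EPSTI1, which these same values chose. EPSTI1 passed the limit of 5 TPM only through 26D_3. These counts thus carry no test. The 3 members of the lipid and epithelial lists were also highest in 26D_3. ADIPOQ, the fat cell hormone adiponectin, was at 0.366, 0.211 and 1.17 at 26D, and LPL, the lipoprotein lipase, at 0.271, 0.275 and 1.42. Of 13 adipocyte and lipid genes with at least 5 TPM at 26D, these 2 included, 7 were highest in 26D_3, 4 in 26D_1 and 2 in 26D_2. The 16 measured ones summed to 18.6, 17.9 and 23.5. MUC13, a membrane mucin of epithelia, was at 0.327, 0.206 and 1.07 at 26D. The 25 epithelial genes measured did not have this order, with sums of 34.4, 29.7 and 33.7, and of 12 with at least 5 TPM at 26D 6 were highest in 26D_3 and 5 in 26D_1. CEBPB, LYZ, EPSTI1, ADIPOQ, LPL and MUC13 were each highest in 26D_3 of the squabs of that age. How far more of such cells in 26D_3 shared in these values was not tested.

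The named or numbered genes of this group with the highest SD at 26D were NTMT2, LOC102096943, SLC2A9, LOC102089278 and G0S2. SLC2A9, a urate transporter, was at 3.96, 1.26 and 0.483 at 1D, at 0.225, 0.535 and 0.272 at 13D, and at 0.0554, 0.119 and 1.11 at 26D. G0S2, an inhibitor of fat cell lipase, was at 0.854, 1.22 and 0.978 at 1D, at 0.590, 0.171 and 0.378 at 13D, and at 0.340, 0.0957 and 1.82 at 26D. Both were highest at 26D in 26D_3. G0S2 at 13D was below all 1D libraries, while SLC2A9 at 13D overlapped 1D. LOC102096943 went from 0.0307 in 26D_1 to 1.86 in 26D_3, and LOC102089278 from 0.0794 to 1.72.

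**Figure D2:**
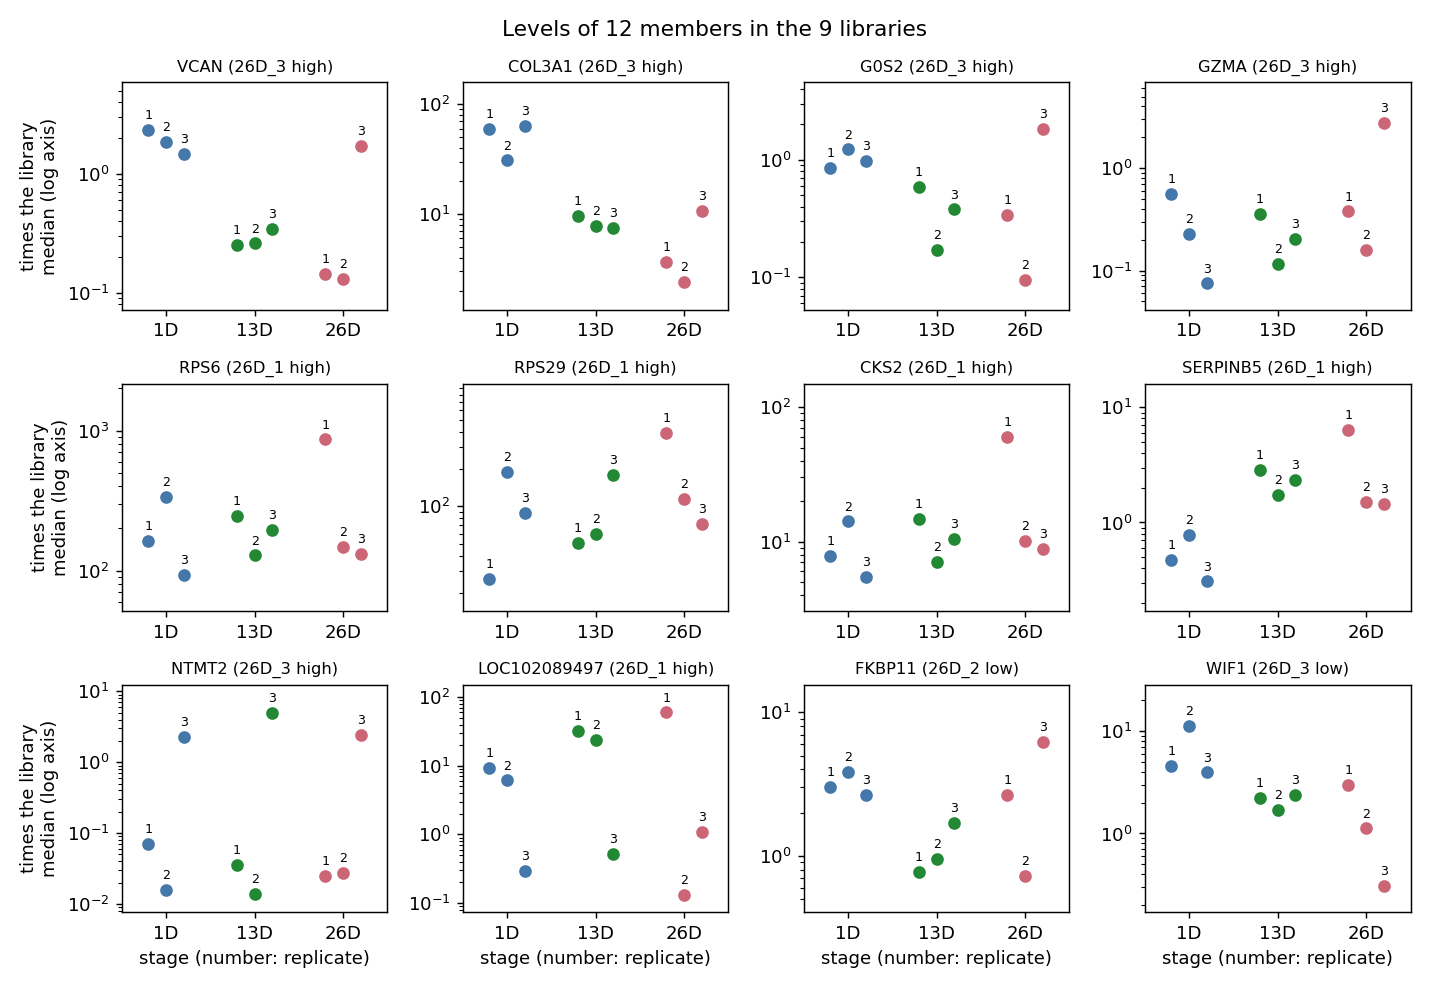
Levels of 12 of the 150 mRNAs, in library medians on a log axis, in the 3 replicates (numbered) of 1D (blue), 13D (green) and 26D (red). Replicate 3 is the high 26D point of VCAN, COL3A1, G0S2 and GZMA, replicate 1 that of RPS6, RPS29, CKS2 and SERPINB5, and NTMT2 is high in replicate 3 of each stage.

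The genes of the 26D_3 group were compared with their levels at the earlier stages. The level in 26D_3 was above all 13D libraries in 63 of 65, within the range of 1D in 16 and above all 1D libraries in 41, and it was the highest of all 9 libraries in 40 of 65. On the deposited TPM it was above all 13D libraries in 60 and the highest of all 9 libraries in 34. In 23 of 65, both other 26D libraries were below all 13D libraries. The choice of the group favours such counts. The earlier stages were not used for that choice. Of the 65, 58 had a lower mean at 13D than at 1D on the log2 scale, or 89.2%. The share was 33.0% of the 7022 mRNAs and 50.3% of all 13072. The 7022 have a mean of at least 5 TPM at 26D, a limit that VCAN and PRF1, for example, passed only through 26D_3. The count of 58 became 59 on the deposited TPM and 60 with median-of-ratios factors. The 6 Z-linked genes of this group were then left out. The median pairwise correlation of the others over the 6 libraries of 1D and 13D, each minus the mean of its stage, was 0.156. Over all 7022 mRNAs it was 0.0021, and among all 150 it was 0.178. For all 65 genes it was 0.173. The group, Z-linked genes included, thus did not vary together more than the whole list. The whole list was not computed without its Z-linked genes. Between all 65 and the 20 Z-linked mRNAs high in 26D_1 the median correlation was 0.353. The 6 points share the scaling of their library, and genes are not independent.

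Proliferation genes went the other way in 26D_3, although none of them is among the 150. Of 27 genes of a cell cycle list, 26 were lowest in 26D_3 of the 26D squabs, against 3045 of the 7022 mRNAs. On the deposited TPM 9 of the 27 were lowest in 26D_3 and 18 in 26D_1. The same counts over the 7022 mRNAs were 464 and 6246. Their summed level was 235 in 26D_1, 188 in 26D_2 and 126 in 26D_3. B lineage genes at 26D summed to 340, 253 and 289 in this order. Of 15 with at least 5 TPM at 26D, 10 were lowest in 26D_3. On the deposited TPM 2 were, and 13 were lowest in 26D_1, to be read against the same 464 and 6246 of 7022. Their median log2 difference of 26D_3 from the other squabs was -0.61.

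**Figure D3:**
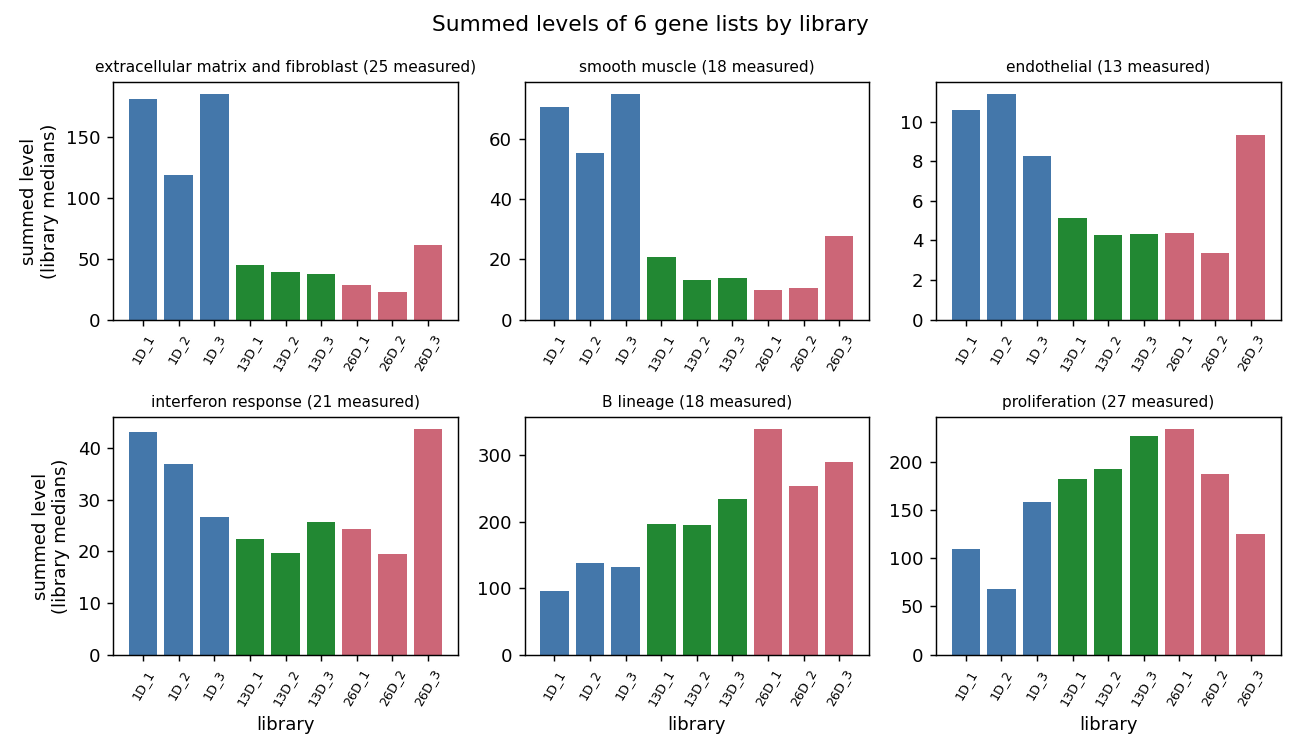
Summed level of the measured genes of 6 lists in each library, in library medians, with bars coloured by stage and starting at 0. Matrix, smooth muscle, endothelial and interferon genes are higher in 26D_3 (61.4, 27.8, 9.31 and 43.8) than in the other 26D libraries, proliferation genes lower (126).

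High in 26D_1 were ribosomal protein genes and genes of chromosome Z. RPS6, a protein of the small ribosomal subunit encoded on Z, was at 164, 335 and 92.9 at 1D, at 245, 128 and 196 at 13D, and at 865, 148.5 and 131 at 26D. RPS29, another protein of the small subunit, was at 25.7, 191 and 88.6 at 1D, at 50.5, 59.4 and 179.7 at 13D, and at 392, 115 and 72.2 at 26D. In both, 26D_1 was the highest of all 9 libraries, and the other 26D libraries were within the range of the earlier stages. RPL37, a protein of the large subunit also encoded on Z, was at 1478 in 26D_1 against 302 and 309. Among the 150 were 13 ribosomal protein genes in all, namely RPS6, RPS13, RPS14, RPS15A, RPS23, RPS29, RPL22L1, RPL24, RPL31, RPL34, RPL35A, RPL37 and RPL37A, of which RPS6, RPS23 and RPL37 are on Z. A list of 62 ribosomal protein genes was added after these values were seen. All 62 were highest in 26D_1 of the 26D squabs, against 3105 of the 7022 mRNAs. On the deposited TPM 46 of 62 were, against 302 of 7022. Their median level was 254 in 26D_1, 101 in 26D_2 and 89.9 in 26D_3, and 62.6 to 122 at the earlier stages. These levels are in units of the library median, which was lowest in 26D_1, at 5.95 TPM against 11.9 and 12.3 TPM in 26D_2 and 26D_3. With library medians 56 of the 62 were above all other libraries in 26D_1, against 2035 of 7022 mRNAs. On the deposited TPM 25 were, against 73 of 7022. The 62 include the 13, so these counts carry no test.

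The weight of 26D_1 depended on the scaling. On the deposited TPM, where 26D_1 was below 26D_2 by a median of 0.913 on the log2 scale over the 10027 mRNAs, the rule took a list that shared 87 of the 150 mRNAs, with 4 on the high side of 26D_1 and 50 on its low side. The 51 mRNAs, chosen for a high 26D_1, were highest there among the 26D libraries under each of the 3 scalings. They were above all 8 other libraries in 49 of 51 with library medians, against 2035 of 7022 mRNAs, and in 28 of 51 on the deposited TPM, against 73 of 7022. The choice of the group favours these counts.

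Of the 51, 20 are on chromosome Z. Over all 150 this was 27, or 18%, against 4.91% of the 7022 mRNAs, and with 26D_1 left out the rule took a list with 8 genes, or 5.33%, on Z. The following Z-linked genes were named after their values were seen. CKS2, a small subunit of cyclin-dependent kinases, was at 7.85, 14.1 and 5.48 at 1D, at 14.7, 6.999 and 10.5 at 13D, and at 59.8, 10.1 and 8.86 at 26D. CDK7, a kinase that activates the cell cycle kinases, was at 4.61, 6.34 and 2.61 at 1D, at 5.35, 4.21 and 5.72 at 13D, and at 17.1, 3.80 and 3.35 at 26D. MRPS27, a protein of the mitochondrial ribosome, was at 5.98, 6.30 and 3.17 at 1D, at 8.53, 4.08 and 3.85 at 13D, and at 13.3, 3.19 and 2.71 at 26D. In all 3 genes replicates 1 and 2 were above replicate 3 at 1D. Further Z-linked genes high in 26D_1 were ATP5ME, a subunit of ATP synthase, NDUFS4, a subunit of complex I, TOMM5, a part of the mitochondrial import pore, CENPK, a kinetochore protein, and XPA, a DNA repair protein.

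The order of the squabs at the other stages, which the rule did not use, followed the Z level for these genes. Of the 20 Z-linked mRNAs high in 26D_1, 18 were higher in both 1D_1 and 1D_2 than in 1D_3, and 16 were highest in 13D_1 at 13D. Among all 345 Z-linked mRNAs of the 7022 these shares were 83.5% and 84.1%, and among those not on Z they were 33.2% and 26.5%. Of the 31 genes of the group that are not on Z, 8 and 8 showed these orders. The 20 thus followed the other Z-linked mRNAs in order. The ratio of 26D_1 to 26D_2, for which they were chosen, had a median of 3.82 over the 20 and of 1.75 over the 345, and was 5.90 for CKS2. Over the 6 libraries of 1D and 13D the median pairwise correlation, after the mean of each stage was taken off, was 0.774 among the 20 genes on Z and 0.481 among the 31 others. It was 0.903 among the 13 ribosomal protein genes, 0.303 between the Z-linked and the other genes, and 0.353 between the Z-linked genes and the 26D_3 group. At these stages the ribosomal median level was highest in 13D_3, at 122 with a library median of 10.8 TPM. It was lowest in 1D_1, at 62.6 with 19.9 TPM. How far the shared scaling entered these correlations was not tested.

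**Figure D4:**
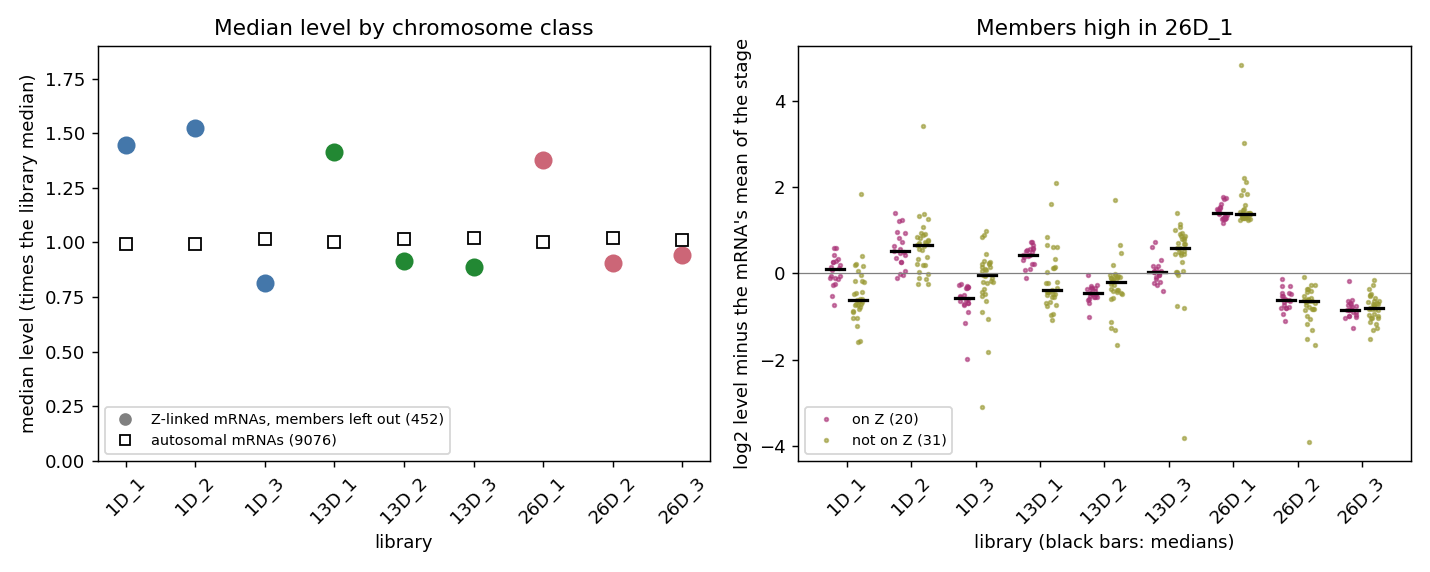
Left, the median level of 452 Z-linked mRNAs outside the 150 (filled, by stage) and of 9076 autosomal mRNAs (open) in each library, on an axis from 0. Right, the log2 level of the 51 mRNAs high in 26D_1 minus their mean of the stage, on Z and not on Z, with medians as bars; Z-linked genes are low in 1D_3 and raised in 13D_1, while the others are raised in 13D_3.

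Other genes of the 26D_1 group had further patterns. SPX, the peptide hormone spexin, was at 0.853, 4.15 and 1.16 at 1D, at 2.44, 3.50 and 1.28 at 13D, and at 7.82, 0.634 and 1.68 at 26D. LOC102083871 was at 7.20, 228 and 6.07 at 1D, at 48.0, 5.04 and 16.4 at 13D, and at 43.4, 1.85 and 1.85 at 26D. The high library of LOC102083871 was thus a different squab number at 1D than at the later stages. SPX was highest in replicate 2 at 1D and 13D and in replicate 1 at 26D. LOC102092258 was at 1504 in 26D_1 against 214 and 239, and LOC102097248 at 7.75 against 0.739 and 0.813.

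The smaller groups held mostly genes low in 1 squab. Among the 12 mRNAs low in 26D_2 were S100P, FKBP11, MTNR1A and CLEC3B. S100P, a calcium-binding protein, was at 21.4, 36.2 and 3.66 at 1D, at 5.36, 1.52 and 5.36 at 13D, and at 6.11, 0.972 and 7.83 at 26D. FKBP11, a chaperone of secretory cells and a plasma cell marker, was at 3.04, 3.83 and 2.67 at 1D, at 0.778, 0.952 and 1.70 at 13D, and at 2.66, 0.729 and 6.20 at 26D. TNFRSF17, the BCMA receptor of plasma cells, was at 1.77, 0.411 and 1.74 at 26D, and the 11 plasma cell genes measured summed to 96.5, 41.4 and 90.8. FKBP11 and TNFRSF17 were lowest in 26D_2 at 26D. So were 6 of the 9 plasma cell genes with at least 5 TPM at 26D, against 1908 of the 7022 mRNAs. On the deposited TPM 5 of 9 were, against 312 of 7022. FKBP11 and TNFRSF17 are among the 6, so the count carries no test. CLEC3B, the plasminogen-binding tetranectin, was at 0.423, 0.135 and 0.939 at 26D. MTNR1A, a melatonin receptor, was at 0.553, 0.0614 and 0.896 at 26D and was listed at 0 in 1D_3 and 13D_1.

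Low in 26D_3 were 14 mRNAs, among them WIF1, CIMAP3, NECAB1, DUSP23, CIMIP1 and TMEM233 as the ones with a gene name. WIF1, a secreted inhibitor of Wnt ligands, was at 4.60, 11.2 and 3.94 at 1D, at 2.23, 1.69 and 2.36 at 13D, and at 2.98, 1.12 and 0.307 at 26D. CIMAP3 was at 0.0247, 0.147 and 0.156 at 1D, at 0.230, 0.538 and 0.360 at 13D, and at 1.37, 0.690 and 0.129 at 26D. WIF1 in 26D_3 was below all other libraries, whereas CIMAP3 in 26D_3 was within the range of 1D. LOC102093544 was at 0.547 in 26D_3 against 6.66 and 3.21, LOC102093716 at 78.8 against 755 and 624, and LOC102097445 at 11.3 against 33.6 and 94.7. Low in 26D_1 were LOC110356643, which was listed at 0 in 1D_1 and 26D_1 and reached 0.708 in 26D_3, and LOC102090228, at 7.40, 23.9 and 46.9 at 26D. High in 26D_2 were LOC102092620, at 3.24, 21.1 and 7.13 at 26D, and FAM171B, at 0.144, 0.879 and 0.320.

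The libraries of the other ages also differed in many of these mRNAs. The median SD of the 150 was 0.552 at 13D and 0.746 at 1D, against 0.204 and 0.303 over the 7022 mRNAs. At 13D, 83 of the 150, or 55.3%, had an SD over the 90th percentile of the 7022, which 10% of all exceed. At 1D 78 had, or 52.0%, against 10%. The limit of 5 TPM at 26D lets in mRNAs that are low at the other ages. PRF1, which passed it only through 26D_3, was at 0.608 to 5.13 TPM at 1D and 13D. How far the counting error of low values entered these SDs was not tested, so the shares carry no test. Without the 27 Z-linked genes the median SD was 0.587 at 13D and 0.783 at 1D. With 1 library of 13D left out at a time the median was 0.439 to 0.453, and the median of the 7022 was 0.145 to 0.181. At 1D the same medians were 0.522 to 0.784 and 0.218 to 0.301. On the deposited TPM the 7022 mRNAs had medians of 0.438 at 13D and 0.484 at 1D, against 0.546 and 0.729 for the 150.

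A set of 18 of the 150 had an SD of at least 1 at each of the 3 stages, while 38 of the 7022 had this at 1D and 13D. NTMT2, an N-terminal methyltransferase, was at 0.0708, 0.0158 and 2.30 at 1D, at 0.0355, 0.0138 and 4.92 at 13D, and at 0.0248, 0.0277 and 2.46 at 26D. It was thus high in replicate 3 and near 0 in replicates 1 and 2 of each age, and its SD of 4.20 at 13D was the highest of the 150. LOC102089497, the mRNA with the highest SD at 26D, was at 9.25, 6.14 and 0.290 at 1D, at 31.9, 24.1 and 0.520 at 13D, and at 60.2, 0.132 and 1.10 at 26D. LOC102097257 was at 12.6, 13.7 and 0.254 at 1D, at 33.0, 30.4 and 0.656 at 13D, and at 61.0, 0.455 and 13.7 at 26D. Both were high in replicates 1 and 2 of 1D and 13D and low in replicate 3, the reverse of NTMT2. GeneID:102094636, which has no symbol, was at 34.9, 1.72 and 27.2 at 1D, at 1.33, 80.4 and 61.6 at 13D, and at 2.80, 24.3 and 0.363 at 26D. At the other end TNIP3, an inhibitor of NF-kappa-B signalling, was at 0.747, 0.769 and 0.741 at 13D and at 0.588, 1.07 and 2.68 at 26D, and LOC102095620 was at 0.511, 0.523 and 0.499 at 13D and at 0.598, 0.444 and 2.57 at 26D.

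**Figure D5:**
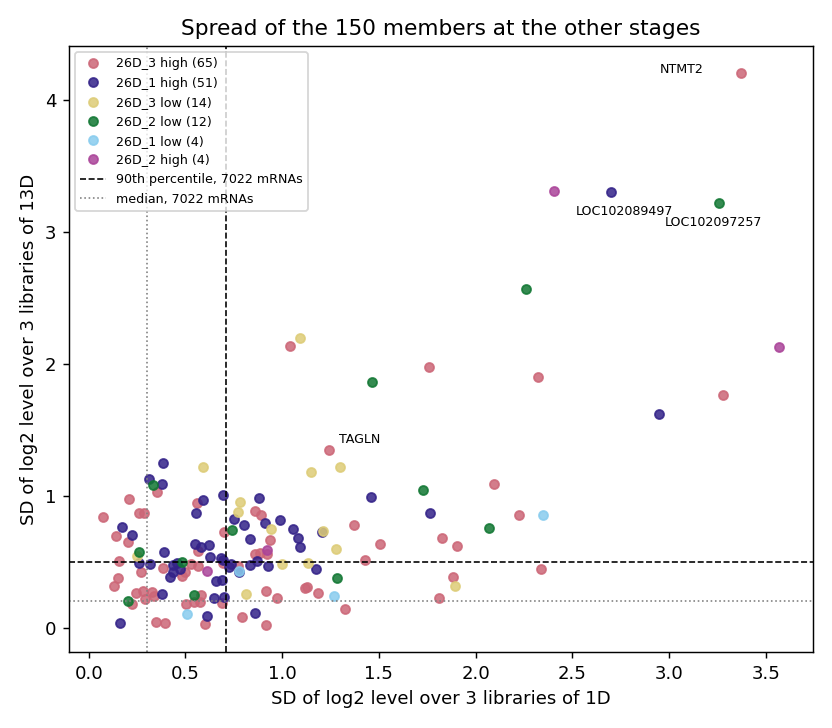
SD of the log2 level of each of the 150 mRNAs over the 3 libraries of 1D (horizontal) and of 13D (vertical), coloured by the 26D library that stood apart. Dashed lines mark the 90th percentile and dotted lines the median of the 7022 mRNAs, and NTMT2, LOC102089497 and LOC102097257 lie at the upper right.

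LOC102089497 and LOC102097257 lie near each other. In the gene order of the RefSeq table, whose assembly is not that of the files, they belong to a stretch of 32 protein-coding genes, of which 28 are listed, 27 had at least 5 TPM at 26D and 11 are among the 150. None of the 11 has more than a LOC number. They differed in pattern, with 5 high in 26D_1, 4 low in 26D_3, 1 low in 26D_2 and 1 high in 26D_2. LOC102093168 in this stretch was at 2683 in 26D_1 against 624 and 796, and LOC102092443 at 142 in 26D_3 against 548 and 546. How the authors' quantification split reads among similar neighbours was not tested. A second stretch of 8 genes held LOC106146099, LOC106146106 and LOC106146087, the only 3 there with at least 5 TPM at 26D, and all 3 were high in 26D_3, at 15.1, 4.36 and 5.95 against 0.861 to 3.68 in the other 26D libraries. These stretches were singled out after their values were seen.

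The comparison 13D vs. 1D asked which of the 150 changed with age, in libraries that did not choose them. With limma on log2(level + 0.01), 25 of the 150, or 16.7%, were called (absolute log2 difference over 1, and p under 0.05 after Benjamini-Hochberg adjustment over all mRNAs), against 10.8% of all 13072 mRNAs and 6.44% of the 7022. Of these 21 were lower at 13D, or 14%, against 8.71% of all mRNAs and 3.26% of the 7022. Higher at 13D were 4, against 2.07% of all mRNAs and 3.18% of the 7022. The 26D_3 group held 16 of the lower calls and no higher one, which is 24.6% of its 65 genes. The 26D_1 group had 3 higher calls and no lower one among 51. Of the 123 not on Z, 22 were called, or 17.9%, and 23 in a fit without Z-linked mRNAs. The count of 25 depended on single libraries. It was 10 without 1D_1, 23 without 1D_2 and 39 without 1D_3. It was 12 without 13D_1, 11 without 13D_2 and 13 without 13D_3. Over all 13072 mRNAs the 1410 calls became 324, 1331, 1889, 408, 242 and 437 in the same order. On the deposited TPM 45 of the 150 were called, 12 higher and 33 lower. Over all mRNAs 1068 of 13072 were called there, or 8.17%, with 187 higher and 881 lower. That fit also added another constant before the log2, so it does not show the scaling alone.

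Of the 21 that fell, 9 belong to the matrix and smooth muscle lists. TAGLN fell by 3.80 on the log2 scale (SE 0.771, limma adjusted p = 0.0218). MYH11 fell by 2.83 (SE 0.328, limma adjusted p = 0.00671) and COL1A2 fell by 2.76 (SE 0.329, limma adjusted p = 0.00684). The log2 difference was -2.68 for VCAN, -2.56 for COL3A1, -2.20 for COL6A3, -2.09 for COL6A2, -1.84 for OGN and -1.66 for LUM, with limma adjusted p between 0.00378 and 0.0152. VCAN lies on Z, and with the median level of Z-linked mRNAs as a covariate its difference was -2.62. Among the genes with only a number, LOC102084061 fell by 3.91 (SE 1.002, limma adjusted p = 0.0403), LOC102094876 fell by 3.48 (SE 0.523, limma adjusted p = 0.0102) and LOC102087856 fell by 2.76 (SE 0.458, limma adjusted p = 0.0140). VCAN, MYH11, COL1A2, COL3A1, COL6A3, OGN, LUM and LOC102094876 were called under every alternative in which they were tested, the other 17 were not. G0S2, CEBPB and FKBP11 were also lower at 13D, with log2 differences of -1.55, -1.53 and -1.53, and so was NRP1, a receptor of semaphorins and VEGF, with -1.18. The other lower calls were LOC102092415, WIF1, TNIP3, RBP7 and LOC102090107.

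The 4 mRNAs that rose, named after their values were seen, were TMEM233, LOC102097248, LOC102093809 and SERPINB5. SERPINB5, the serpin maspin of epithelial cells, was at 0.477, 0.779 and 0.308 at 1D, at 2.88, 1.75 and 2.33 at 13D, and at 6.41, 1.498 and 1.45 at 26D, and rose by 2.20 (SE 0.348, limma adjusted p = 0.0122). TMEM233, a transmembrane protein, was at 0.101, 0.175 and 0.509 at 1D, at 1.55, 0.791 and 1.24 at 13D, and at 1.39, 1.91 and 0.402 at 26D, and rose by 2.40 (SE 0.545, limma adjusted p = 0.0292). In 26D_3 TMEM233 was back within the range of 1D, whereas SERPINB5 was above 1D in all 3 libraries of 26D.

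The gene lists gave these counts in the same comparison, to be read against the 8.71% of all mRNAs called lower and the 2.07% called higher. Of 25 matrix and fibroblast genes measured, 20 were called lower at 13D and none higher, and of 18 smooth muscle genes 15 were called lower and none higher. Such a fall was not confined to lists with members: of 18 neuron and glia genes, with none of the 150, 11 were called lower and 1 higher. Of 13 endothelial genes 5 were called lower, and of 25 epithelial genes 5. Further lists without members had 5 of 15 inflammation, 4 of 19 immediate early, 3 of 12 glucocorticoid response and 4 of 16 circadian clock genes called lower. Counts nearer to the share of all mRNAs were 3 lower of 21 interferon response genes, 1 lower and 1 higher of 15 T and NK lineage genes, 1 lower and 1 higher of 12 myeloid genes, 1 lower and 1 higher of 11 plasma cell genes and, by limma, 0 of 16 adipocyte and lipid genes, with 3 of these at an unadjusted p under 0.05. The B lineage and proliferation lists, which hold none of the 150, had 6 of 18 and 4 of 27 genes called higher and none lower. No ribosomal protein gene of 62 was called by limma, with 3 at an unadjusted p under 0.05. The lists' median log2 differences were -1.84 for matrix and fibroblast, -2.25 for smooth muscle, -2.13 for neuron and glia and 0.96 for the B lineage, against -0.0026 over all mRNAs.

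Among lncRNAs the same rule gave another order of the squabs. Of 2011 lncRNAs with a mean of at least 5 TPM at 26D, scaled by the same library medians, the 43 with the highest SD at 26D, the same share as for mRNAs, all had an SD of at least 1.86. Of these, 19 were low in 26D_2, 11 high in 26D_3, 7 low in 26D_1 and 3 high in 26D_1. These counts, too, come from the values that chose the lncRNAs.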

How the data were processed

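The authors used STAR 2.6.0c and the genome build Cliv_1.0 for mapping, Cufflinks 2.1.1 and TACO for assembly and Kallisto for quantification, and deposited TPM for mRNAs and lncRNAs, tool versions per the labels. TPM carry no read counts, so the depth and the counting error of a value are unknown. The 9 libraries are separate squabs, so p-values measure the spread between squabs.

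Levels, SDs, library apart and list sums were computed with Python 3.11.15, figures with matplotlib 3.10.9, and 13D vs. 1D was fitted with limma 3.58.1 in R 4.3.3 (lmFit, eBayes with trend, all 13072 mRNAs, 6 libraries, no covariate, Benjamini-Hochberg over all). The authors used edgeR, which needs counts. The script was tested on simulated data. Symbols and chromosomes came from RefSeq bColLiv1.pat.W.v2, another assembly, by gene ID (12387 of 13072 matched), so no position is given.

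The members, lists and tests were chosen with earlier results of these data known. Named are, by rule, per library pattern the 5 genes with a symbol (LOC numbers included) of highest SD at 26D (2 in groups under 10), members of the lists (up to 4 each), the 6 largest called changes, the 5 highest and 3 lowest SDs at 13D, those next to the limit, and the ribosomal and collagen families. A gene under this rule is not reported here. List results beyond those in the text are, for genes highest in 26D_3 of those with at least 5 TPM at 26D: myeloid 6 of 8, heterophil granule 1 of 1, erythroid 0 of 1, skeletal muscle 0 of 2, epithelial 6 of 12, neuron and glia 0 of 1, adipocyte and lipid 7 of 13, liver plasma protein 2 of 3, inflammation 3 of 3, immediate early 7 of 10, heat shock 7 of 19, glucocorticoid response 3 of 6 and circadian clock 5 of 11. Where a list holds members, its count includes them, and none of these counts carries a test. No gene of the mitochondrial genome list was matched. Alternatives were other pseudocounts, scalings, filters and level limits, eBayes without trend, all 9 libraries, no fold threshold, the replicate number as a block, libraries left out and, added after the data were seen, Z-linked mRNAs left out or their median level as a covariate.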

Additional observations from a re-analysis of the deposited data

How the results depend on the processing

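The 25 members called in 13D vs. 1D became 45 on the deposited TPM, where the constant added before the log2 also differed. They became 15 of 150 in a joint fit of all 9 libraries. Over all mRNAs that fit called 1425 of 13072, so the share of the members was not above that of all mRNAs. The joint fit also takes in the spread at 26D, for which the members were chosen. It thus cannot decide whether members were called more often than other mRNAs. With a library left out, 10 to 39 members were called. The other settings gave 20 to 26 calls. Over all mRNAs, 1410 calls became 860 with a pseudocount of 0.1 and 242 to 1889 with a library left out, namely 324 without 1D_1, 408 without 13D_1, 242 without 13D_2 and 437 without 13D_3. With the replicate number as a block, 923 mRNAs and 23 members were called. The deviations of same-numbered 1D and 13D squabs correlated at 0.415, -0.210 and 0.104, and not every squab correlated best with its own number, so the numbers were not taken as pairs. For the 25 called members, 308 of 397 values under 16 alternatives stayed called, 89 kept their direction without the call and 0 reversed. Under alternatives that moved the member list, it shared 87 mRNAs on the deposited TPM and 60 with a mean of at least 1 TPM, and 70 to 118 with a 26D library left out (87 without 26D_1, 70 without 26D_3). The 51 mRNAs high in 26D_1 became 4 on the deposited TPM. The median SD at 13D of 0.552 became 0.502 with a pseudocount of 0.1, 0.542 with median-of-ratios factors, 0.587 without Z-linked members and 0.439 to 0.453 with a library left out. At 1D it was 0.522 to 0.784 with a library left out. The causes of these shifts were not tested. The 3 squabs per age and values without counts limit the precision.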
